A study of Homo sapiens with 6 samples.

Results

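The 43 genes described here are interferon-stimulated genes, the sensors that detect foreign RNA, and the receptors and transcription factors that link them, among 27605 genes measured by RNA sequencing. They were chosen by gene symbol as known parts of the type I interferon response, and all 43 were in the table. Cells labelled HepG2, an established line of hepatoma origin, carried either a control short hairpin RNA (shNC, 3 libraries, genotype given as WT) or a lentiviral short hairpin RNA against ARHGEF2 (shARHGEF2, 3 libraries, genotype given as ARHGEF2 knockdown). ARHGEF2, also called GEF-H1, is a microtubule-bound exchange factor for the GTPase RhoA. The labels name no drug or stress treatment for either group, and the cells grew in DMEM with serum. How many hairpins against ARHGEF2 were used, whether the cells were a clone or a pool, and whether each library came from its own culture are not given in the sources used here. The p-values therefore measure the spread between these libraries, which may be technical. The comparison asks how the level of each gene differed between knockdown and control cells.

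In this pathway RNA sensors in the cytoplasm bind foreign or double-stranded RNA and signal through the mitochondrial adaptor MAVS to the transcription factors IRF3 and IRF7, which switch on interferon genes. Secreted interferon binds the receptor IFNAR1/IFNAR2, and a complex that holds STAT2 and IRF9 then enters the nucleus and binds the interferon-stimulated response element (ISRE) in the promoters of the effector genes. Type I interferon is known for restricting viruses in the liver, and hepatoma lines differ in how much of this machinery they keep.

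ARHGEF2 itself was listed at 13.0, 14.4 and 13.9 FPKM (sequenced fragments scaled by transcript length and by sequencing depth) in the shNC libraries and at 4.25, 4.004 and 4.82 FPKM in the shARHGEF2 libraries. Its log2 fold change was -1.47 (SE 0.11, limma, Benjamini-Hochberg adjusted p = 0.00244 over all genes tested), and the adjusted p was 0.0701 when low genes were not filtered out. The hepatocyte markers at hand went against the cell label. AFP, APOA1, SERPINA1 and HNF4A were each at or below 0.248 FPKM in all 6 libraries, and the rest of the hepatocyte list was not used here. The epithelial keratins KRT8 and KRT18 were at 107 to 202 and 148 to 216 FPKM, while EPCAM and CDH1 stayed at or below 0.0547 and 0.0433 FPKM. Of the leukocyte markers, PTPRC was at or below 0.0239 FPKM, CD14 at or below 0.278 FPKM and LYZ at 0 in 5 of 6 libraries, although CD68 was at 60.4 to 87.8 FPKM. Of the 4 fibroblast markers, LUM was at 22.5 to 39.03 FPKM, DCN at 1.56 to 2.66 FPKM and COL1A2 at or below 0.0453 FPKM. COL1A1 was at 6.08 to 6.81 FPKM in shNC and 8.12 to 9.60 FPKM in shARHGEF2 (log2 fold change 0.39, limma unadjusted p = 0.00713, adjusted p = 0.188), and its part in the members' differences was not tested. The files hold no read counts, so depth per library and counting error per gene are unknown. These are bulk samples, in which fewer cells of a type and less RNA per cell cannot be told apart.

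The promoters of the members show what the list has in common. The RefSeq table (GRCh38.p14, 250 bases before to 50 bases after each transcription start) held 42 promoters for 33 of the 43 members. The core letters of the ISRE, GAAA, any 2 bases and GAAA again, read on both strands (TTTC, any 2 bases and TTTC on the other), stood in 61.9% of these 42 promoters, against 3.57% of all 35116 promoters in the table. Counted by gene, 22 of 33 members had the core in a promoter, or 66.7%, against 4.38% of all 27305 genes. It was found for all 3 ADP-ribosylation genes, all 3 IFIT genes in the table, 4 of 5 IFI genes, 6 of 8 antiviral effectors, 3 of 5 RNA sensor genes, 2 of 3 genes of the ISG15 system, 1 of 2 OAS genes and 0 of 4 receptor and signalling genes. A match is a run of letters and not a measured binding site. The list was drawn up from genes known to answer interferon, so the high share describes the list. These 4 windows are shown because they belong to the most abundant member (ISG15), the leading IFI gene (IFI6), the leading gene of the IFIT family that lay lowest in the comparison (IFIT1) and a weakly expressed antiviral effector (RSAD2). Each is written 5′ to 3′ on the strand of its gene, with the core matches in capitals, and overlapping matches run together.
ISG15 (chr1:1013369-1013414, plus strand, nearest match from base -107 of the transcription start): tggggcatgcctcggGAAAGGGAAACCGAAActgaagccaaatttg
IFI6 (chr1:27672261-27672300, minus strand, match from base -93): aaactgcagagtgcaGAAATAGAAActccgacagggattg
IFIT1 (chr10:89392492-89392544, plus strand, nearest match from base -103): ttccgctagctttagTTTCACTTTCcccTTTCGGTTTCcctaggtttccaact
RSAD2 (chr2:6877617-6877656, plus strand, match from base -145): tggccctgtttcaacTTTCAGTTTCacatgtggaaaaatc
ISG15 and IFIT1 each carried 2 core matches in these windows, and their mean levels were 1441 and 21.4 FPKM. The whole IFI6 promoter held 3 core matches, and only the one nearest the start lies in the window shown.

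The members spanned a wide range of levels in both groups. ISG15, BST2, IFI6 and OASL averaged 1441, 568, 367 and 213 FPKM over the 6 libraries, which placed them at percentiles 99.8, 99.5, 99.2 and 98.5 of all 12291 genes tested. OAS1, the fifth in order, averaged 27.0 FPKM. Below these lay MX1, MX2, SAMD9L and XAF1, whose means of 0.113, 0.338, 0.154 and 0.0242 FPKM left them under the limit of 0.5 FPKM that a gene had to reach to be tested. MX1 and MX2 are dynamin-like GTPases that block virus entry and replication and are among the usual markers of an interferon response. In all 6 libraries ISG15 was at 1277 FPKM or more and MX1 at 0.0478 to 0.226 FPKM. The 39 other members were tested. The ranges of the neighbours ISG15, BST2, IFI6 and OASL in this order did not overlap, whereas those of OAS1, OAS3 and IFIT1 did.

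**Figure D1:**
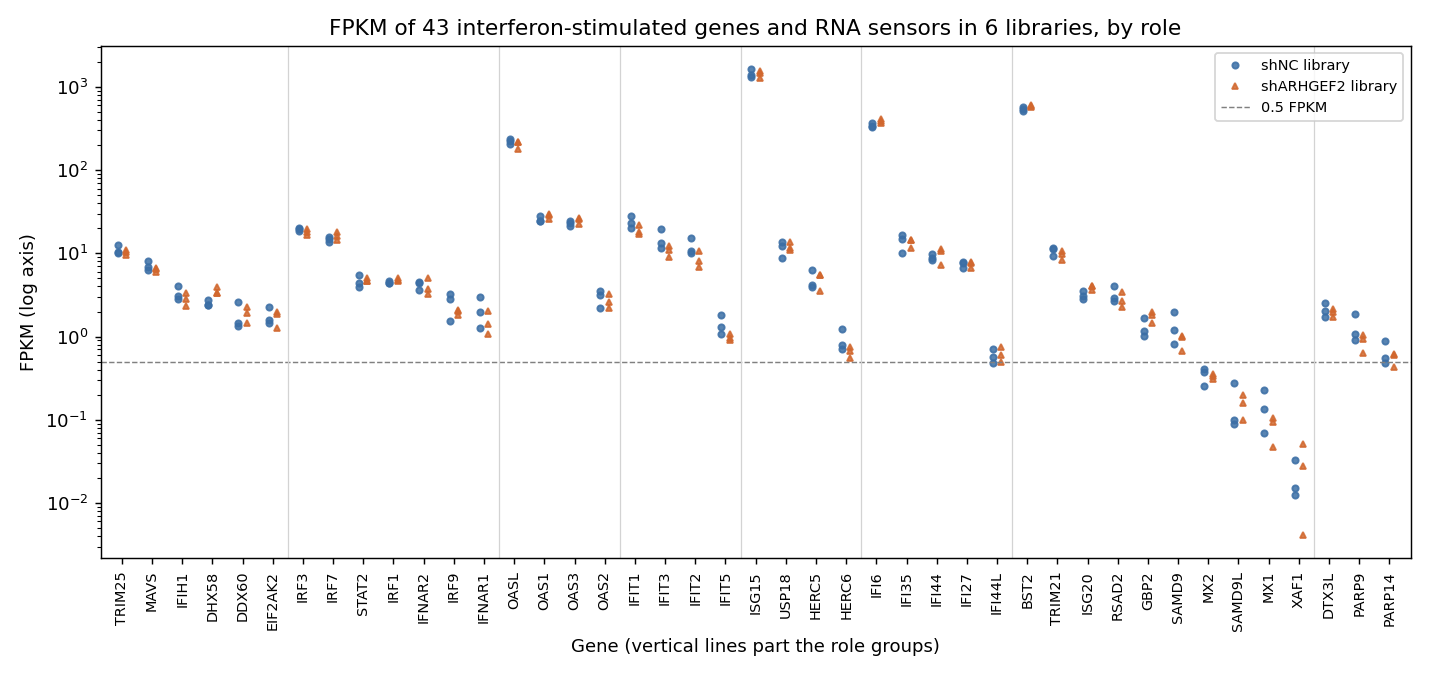
FPKM (log axis) of the 43 genes in each of the 3 shNC libraries (circles) and 3 shARHGEF2 libraries (triangles), ordered by mean level within each role group. ISG15, BST2, IFI6 and OASL stand above 100 FPKM in all 6 libraries, and MX1, MX2, SAMD9L and XAF1 lie under the dashed line at 0.5 FPKM.

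None of the 39 tested members passed an adjusted p of 0.05 in limma, where 34 of 12291 genes, or 0.277%, were called (0.195% higher and 0.0814% lower in shARHGEF2). At an unadjusted p under 0.05 there were 2 members, DHX58 and IFIT2, or 5.13% against 13.7% of all genes tested. DHX58 was the 1 member on the higher side, where 8.1% of all genes lay, and IFIT2 the 1 on the lower side, where 5.55% lay. Log2 fold changes of the members ran from -0.46 to 0.37 on the log2(FPKM + 1) scale, with 14 above 0 and 25 below and a median of -0.051 (all genes tested: median -0.0016, 49.6% above 0). In 6 members, or 15.4%, every library of one group lay above every library of the other, against 20.5% of all genes tested. DHX58, IRF1, IFI6, BST2 and ISG20 were higher in shARHGEF2 in this way (all genes 11.3%), and IFIT5 was lower (all genes 9.17%). With 3 libraries against 3, the exact 2-sided permutation test cannot go below p = 0.1, which was its value for each of these 6. Intervals given are 95% intervals from limma. The added 1 FPKM makes fold changes at low levels smaller than the ratio of FPKM, most of all near or below 1 FPKM. The effect reaches genes of a few FPKM: DHX58 differed by 0.37, and by 0.47 with 0.1 FPKM added instead.

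**Figure D2:**
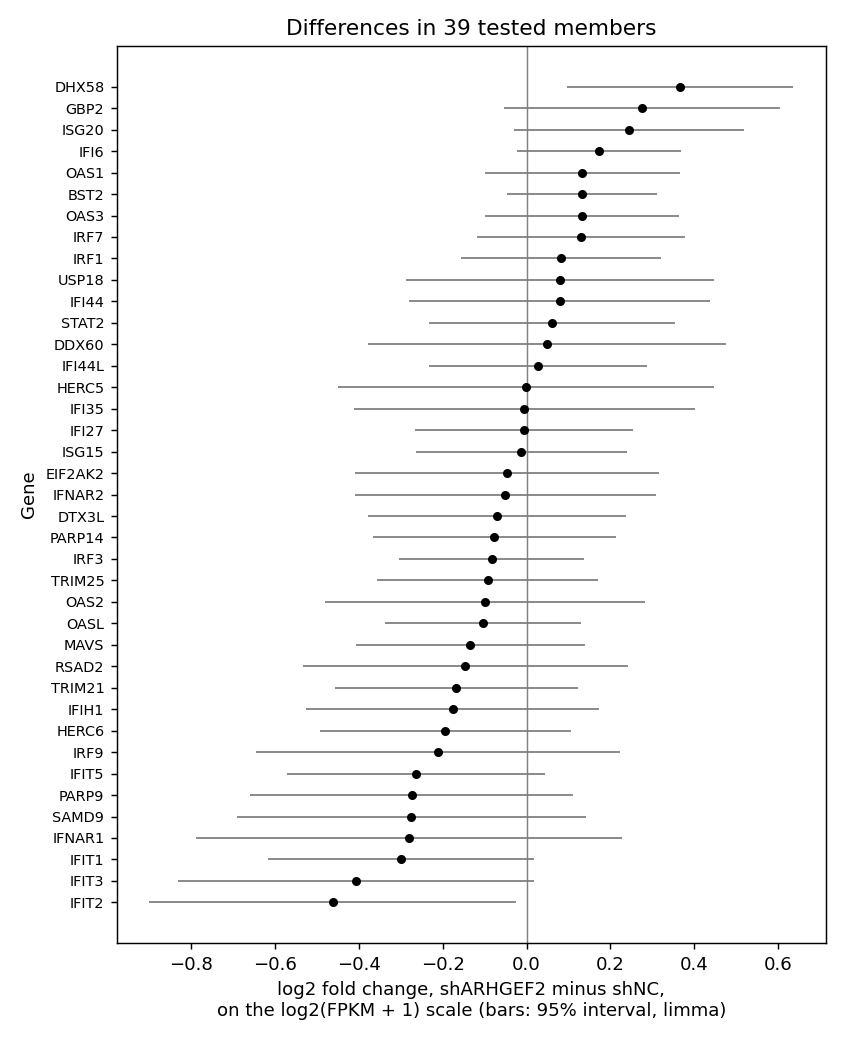
Log2 fold change (shARHGEF2 minus shNC, log2(FPKM + 1) scale) of the 39 tested members with 95% limma intervals, in order of size. The intervals of DHX58 and IFIT2 leave out 0 without adjustment for the number of genes, and 0 of the 39 passed the adjusted test.

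Among the RNA sensors and their adaptor, DHX58 had the highest log2 fold change of the list on the positive side. DHX58 encodes LGP2, a helicase that binds double-stranded RNA and lacks the signalling domains of its relatives. Its level was 2.76, 2.42 and 2.40 FPKM in shNC and 3.97, 3.33 and 3.35 FPKM in shARHGEF2. All 3 shARHGEF2 libraries lay above the shNC libraries. The means were 2.53 ± 0.203 and 3.55 ± 0.360 FPKM (SD, n = 3), a ratio of 1.41. The log2 fold change was 0.37 (95% interval 0.10 to 0.64), and limma gave an unadjusted p of 0.0134 and an adjusted p of 0.233. TRIM25, the ubiquitin ligase that acts on RIG-I, was the most abundant gene of this group, at 10.5, 12.8 and 10.1 FPKM in shNC and 10.5, 9.67 and 10.8 FPKM in shARHGEF2. The groups overlapped (log2 fold change -0.093, interval -0.36 to 0.17). IFIH1, which encodes the long double-stranded RNA sensor MDA5, differed by -0.18 (interval -0.53 to 0.17). The adaptor MAVS differed by -0.13 (interval -0.41 to 0.14). DDX60, a helicase cofactor of the sensors, and EIF2AK2, which encodes the kinase PKR, averaged 1.84 and 1.74 FPKM, and their log2 fold changes were 0.049 and -0.046. DHX58 and DDX60 were the 2 of 6 genes above 0, and the group median was -0.070.

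The receptor chains and transcription factors showed no call either, with 3 of 7 above 0 and a median of -0.051. IRF3, the transcription factor activated downstream of MAVS, was at 18.4, 20.1 and 19.4 FPKM in shNC and 16.7, 18.3 and 19.4 FPKM in shARHGEF2, so the groups overlapped (log2 fold change -0.084, interval -0.30 to 0.14). IRF3 shares 374 exonic bases with BCL2L12 on the opposite strand. IRF7, its interferon-induced relative, averaged 14.8 ± 0.985 and 16.3 ± 1.70 FPKM (SD, n = 3). IRF1 separated the groups by a small margin, at 4.38 to 4.66 FPKM in shNC and 4.68 to 5.00 FPKM in shARHGEF2, a log2 fold change of 0.083. STAT2 and IRF9, partners in the ISRE-binding complex, differed by 0.061 and -0.21. IRF9 was at 2.81, 3.25 and 1.52 FPKM in shNC, a spread wider than the 1.83 to 2.06 FPKM of shARHGEF2. The receptor chains IFNAR1 and IFNAR2 differed by -0.28 and -0.051, and both intervals held 0. Without shNC replicate 2 IRF9 and IFNAR1 differed by -0.060 and -0.077, and without shNC replicate 3 by -0.44 and -0.49.

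The IFIT family, some of whose products bind the ends of viral RNA and block its translation, lay below 0 in all 4 tested genes. The median log2 fold change was -0.35. IFIT2 was at 10.8, 15.5 and 10.1 FPKM in shNC and 6.80, 8.06 and 10.7 FPKM in shARHGEF2. The highest shARHGEF2 library lay between shNC replicates 3 and 1, so the groups overlapped. The means were 12.1 ± 2.92 and 8.51 ± 1.97 FPKM (SD, n = 3), and the log2 fold change was -0.46 (interval -0.90 to -0.025, limma unadjusted p = 0.0405, adjusted p = 0.344). IFIT3 was at 13.5, 19.4 and 11.6 FPKM in shNC and 9.09, 10.9 and 12.3 FPKM in shARHGEF2, with a log2 fold change of -0.41 (interval -0.83 to 0.018, limma adjusted p = 0.388). IFIT1 was at 23.2, 27.9 and 20.1 FPKM in shNC and 17.2, 18.1 and 21.8 FPKM in shARHGEF2, with a log2 fold change of -0.30 (interval -0.62 to 0.018, limma adjusted p = 0.394). In each of these genes shNC replicate 2 was the highest library and shARHGEF2 replicate 1 the lowest. IFIT5, described after its values were seen because its groups did not overlap, was at 1.08, 1.80 and 1.29 FPKM in shNC and 1.06, 0.958 and 0.900 FPKM in shARHGEF2. The gap between the groups was narrow, with a log2 fold change of -0.26 (limma adjusted p = 0.436). The IFIT genes lie next to each other on chromosome 10 and are usually induced together, so the 4 values are not independent of each other. Without shNC replicate 2 the log2 fold changes of IFIT1, IFIT2, IFIT3 and IFIT5 were -0.18, -0.29, -0.21 and -0.15, and the unadjusted p of IFIT2 in limma was 0.146. When another library was left out, these 4 fold changes reached -0.41, -0.62, -0.56 and -0.36.

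**Figure D3:**
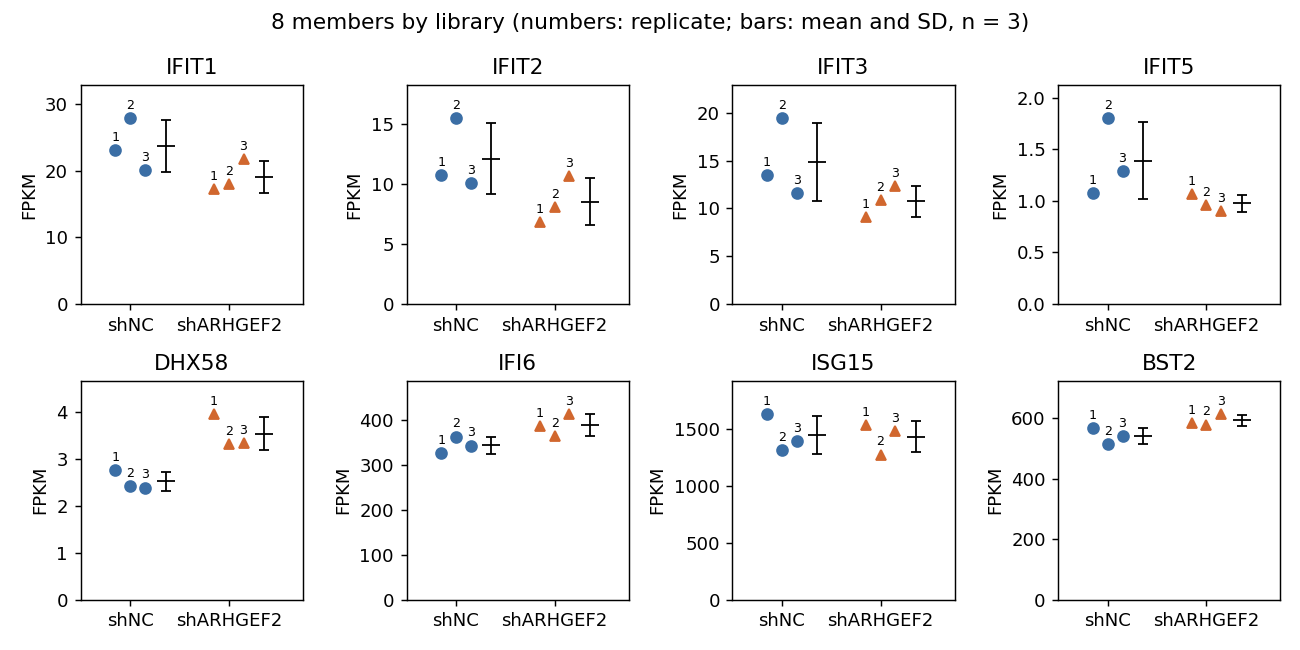
FPKM of 8 members in each library, with replicate numbers beside the points and the mean and SD of each group (n = 3) to the right. In IFIT1, IFIT2, IFIT3 and IFIT5 shNC replicate 2 is the highest of the 6 libraries, whereas the groups of DHX58, IFI6 and BST2 do not overlap and those of ISG15 do.

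ISG15, a ubiquitin-like protein that is attached to other proteins during the interferon response, was the most abundant member and its groups overlapped throughout. It was at 1633, 1319 and 1392 FPKM in shNC and 1536, 1277 and 1487 FPKM in shARHGEF2, a log2 fold change of -0.013 (interval -0.26 to 0.24, limma adjusted p = 0.981). Quantile normalization turned the value to 0.15 (limma adjusted p = 0.308). USP18, the protease that removes ISG15, and HERC5, the ligase that attaches it, averaged 11.8 and 4.82 FPKM and differed by 0.080 and -0.00038. HERC6, a relative of HERC5, averaged 0.779 FPKM and differed by -0.19. The ISG15 system had 1 of 4 genes above 0.

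The OAS enzymes make the 2′-5′ oligoadenylates that activate RNase L. OASL, the enzymatically inactive relative and the most abundant of the family, was at 235, 221 and 206 FPKM in shNC and 218, 179.97 and 219.8 FPKM in shARHGEF2. The groups overlapped (log2 fold change -0.10, interval -0.34 to 0.13). OAS1 and OAS3 averaged 25.7 ± 2.19 and 22.8 ± 1.67 FPKM in shNC and 28.3 ± 2.12 and 25.1 ± 1.97 FPKM in shARHGEF2 (SD, n = 3), both with a log2 fold change of 0.13. OAS2 averaged 2.83 FPKM and differed by -0.099. The family was thus divided, with 2 of 4 genes above 0.

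IFI6, a mitochondrial membrane protein, was the most abundant of the IFI genes, at 326, 364 and 344 FPKM in shNC and 387, 365 and 414 FPKM in shARHGEF2. The groups did not overlap, although the highest shNC and the lowest shARHGEF2 library differed little. The log2 fold change was 0.17 (interval -0.022 to 0.37, limma adjusted p = 0.421). IFI27, IFI35, IFI44 and IFI44L lay between -0.0053 and 0.079, with 2 of the 4 above 0.

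The antiviral effectors lay on both sides of 0, with 3 of 6 tested genes above 0. BST2, or tetherin, which holds budding virions at the cell surface, was at 568, 516 and 541 FPKM in shNC and 586, 580.0 and 615 FPKM in shARHGEF2. Its groups did not overlap, and the log2 fold change was 0.13 (interval -0.046 to 0.31, limma adjusted p = 0.503). ISG20, an RNA exonuclease, was at 3.09, 2.83 and 3.57 FPKM in shNC and 4.10, 3.60 and 4.07 FPKM in shARHGEF2, groups that just failed to overlap, with a log2 fold change of 0.24 (interval -0.030 to 0.52, limma adjusted p = 0.419). GBP2, an interferon-induced GTPase, was at 1.02, 1.15 and 1.67 FPKM in shNC and 1.44, 1.97 and 1.84 FPKM in shARHGEF2. Its groups overlapped and the log2 fold change was 0.28 (interval -0.055 to 0.61, limma adjusted p = 0.449). RSAD2 (viperin, a radical SAM enzyme), SAMD9 and the antibody receptor TRIM21 differed by -0.15, -0.28 and -0.17, and the intervals of all 3 held 0. RSAD2 and SAMD9 differed by -0.0035 and -0.084 without shNC replicate 2, and reached -0.27 and -0.44 when another library was left out.

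DTX3L, PARP9 and PARP14 form a small group around ADP-ribosylation. DTX3L, a ubiquitin ligase that pairs with PARP9, was at 2.03, 2.55 and 1.73 FPKM in shNC and 1.73, 1.98 and 2.12 FPKM in shARHGEF2, with overlapping groups and a log2 fold change of -0.071. PARP9 and PARP14 differed by -0.27 and -0.077, and all 3 were highest in shNC replicate 2. Without that library PARP9 differed by -0.10, and it reached -0.39 when another library was left out. DTX3L and PARP9 share 139 exonic bases on opposite strands, and the preparation kept the strand. On the same strand, the longest exon overlaps of IFIT2, IRF9, IFNAR2 and TRIM25 with other annotated genes were 229, 444, 845 and 86 bases. Strand cannot part reads from those stretches, and their share in the levels of these members was not tested.

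Libraries of the same group differed from each other in many of these genes. Replicate 2 of shNC was the highest of the 6 libraries in 20 of the 39 tested members, or 51.3%, against 30.5% of all genes tested, and shARHGEF2 replicate 1 was the lowest in 15, or 38.5%, against 25.5%. These libraries also lay apart in how their levels related to the GC content of the transcripts. Across 12231 genes, which are not independent replicates, the Spearman correlation between a library's deviation from the gene mean and the GC content of the transcripts was -0.465 in shNC replicate 2 and 0.570 in shARHGEF2 replicate 1, and between -0.289 and 0.199 in the other 4. Of the 21 members under 50% GC, 16 were highest in shNC replicate 2, or 76.2%, against 46.3% of all genes under 50% GC. Their median log2 fold change was -0.15, with 4 above 0, or 19.0%, against -0.023 and 43.5% of all genes under 50% GC. Each library's trend with GC was then removed, an alternative chosen after seeing the data. The median of these 21 members was -0.12 with 5 above 0 after the removal. Among all 5372 genes under 50% GC it was then -0.0031, with 2642 above 0. The 18 members at or above 50% GC had a median of 0.070, with 10 above 0, or 55.6%, against 0.021 and 54.5% of all such genes. After the removal these medians were 0.060 and -0.0067. Without shNC replicate 2, 22 of the 39 members lay above 0 and their median was 0.011 (all genes 0.035). This library was picked after its values were seen. Leaving out a control library raises the fold change of every member in which it is the highest, so this count tests nothing. With each of the other libraries left out in turn, 11 to 16 members lay above 0. Their medians then ran from -0.11 to -0.028 (all genes -0.027 to 0.030). With the trend removed, DHX58, IFIT2, IFIT3 and ISG20 had an unadjusted p under 0.05 in limma, where 18.7% of all genes did, and 0 of 39 passed the adjusted test. The part of base composition in the members' differences was not tested beyond this removal.

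**Figure D4:**
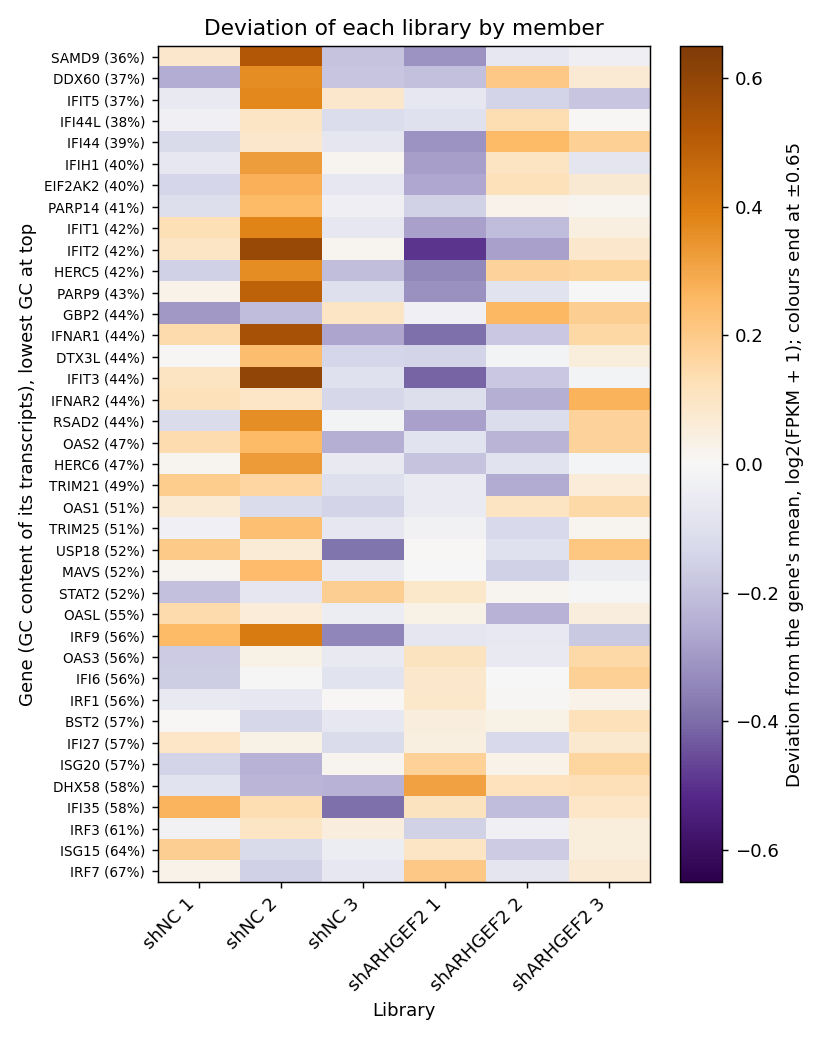
Deviation of each library from the gene's mean over the 6 libraries, log2(FPKM + 1), for the 39 tested members ordered by the GC content of their transcripts. Low-GC members at the top are mostly above their mean in shNC replicate 2 and below it in shARHGEF2 replicate 1, with 16 of the 21 members under 50% GC highest in shNC replicate 2.

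The fold changes were also set beside the promoter letters. The 21 tested members with the core had 7 log2 fold changes above 0 and a median of -0.046, and the 9 tested members with promoters in the table and no core had 3 above 0 and a median of -0.093. IFIT2, DHX58, OASL, GBP2 and IRF7 were among the members with no promoter in the table and entered neither count.

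A further list of 65 gene symbols of the same pathway, which are not members, was examined for context. It held second names for some genes. In the table were 62 of the symbols, 1 for each gene, and 51 were tested. None passed an adjusted p of 0.05, and 7 had an unadjusted p under 0.05, the same 13.7% as among all genes tested. Among the 51, 20 lay above 0 and 31 below. Upstream, the sensor RIG-I (DDX58) was at 1.82, 3.42 and 1.53 FPKM in shNC and 1.37, 1.69 and 1.53 FPKM in shARHGEF2, with shNC replicate 2 again the highest (log2 fold change -0.32, interval -0.78 to 0.13). Without that library its log2 fold change was -0.082, and it reached -0.48 when another library was left out. ADAR, which edits double-stranded RNA, averaged 16.3 ± 4.30 and 15.6 ± 1.83 FPKM (SD, n = 3). The interferon genes IFNB1 and IFNL1, named after their values were seen, averaged 1.12 and 1.57 FPKM in shNC and 0.674 and 2.11 FPKM in shARHGEF2, and the 95% intervals of both log2 fold changes held 0.

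The 7 genes past the unadjusted threshold lay on both sides of 0. CCL5, a chemokine that IRF3 and NF-κB induce, was at 262, 261 and 289 FPKM in shNC and 353, 328 and 368 FPKM in shARHGEF2. Every shARHGEF2 library exceeded every shNC library, and the log2 fold change was 0.37 (interval 0.18 to 0.56, limma adjusted p = 0.127). HELZ2, a nuclear helicase, averaged 21.2 ± 3.78 and 28.6 ± 1.53 FPKM, and the secreted glycoprotein LGALS3BP averaged 278 ± 22.1 and 326 ± 9.07 FPKM in shNC and shARHGEF2 (SD, n = 3), with limma adjusted p values of 0.205 and 0.290. TRIM14, an adaptor that binds MAVS, was at 9.77, 11.9 and 8.67 FPKM in shNC and 6.29, 6.57 and 7.44 FPKM in shARHGEF2. The shARHGEF2 libraries all lay under the shNC libraries (log2 fold change -0.51, interval -0.81 to -0.21, limma adjusted p = 0.158). NMI, GBP1 and CXCL11 differed by -0.29, -0.27 and -0.26, at levels near 1 FPKM.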

How the data were processed

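RNA was sequenced from 6 libraries, 3 shNC and 3 shARHGEF2, after poly(A) selection, with stranded paired-end libraries and molecular identifiers in the adapters. The submitters' processing notes name cutadapt 1.9, HISAT2 2.0.4, UMI-tools and StringTie 1.3.4d and the build hg19, and the annotation is not given in the sources used here. The authors deposited 1 table with FPKM per gene and library. Its other columns, the deposited ratio of the groups, the log2 of that fold, p-values and q-values, are the authors' own comparison and were not used.

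FPKM was taken as log2(FPKM + 1), the 12291 of 27605 genes averaging 0.5 FPKM or more were kept, and limma 3.58.1 (R 4.3.3, statmod 1.5.0; trend and robust variance) was fitted to all 6 libraries with Benjamini-Hochberg adjustment over all genes tested. Whole read counts could not be recovered from the FPKM, since only 42.2 to 44.3% of low values lay within 0.1 of a whole step where 20.0% would by spacing alone, so no count test was run. The members, the lists and the naming rule were chosen with earlier results of these data known. By that rule, values in every library were given for members with an unadjusted p under 0.05, the 3 with the largest and the 3 with the smallest log2 fold change and the most abundant tested member of each role group. Pathway genes outside the list were named when their unadjusted p was under 0.05, together with RIG-I and ADAR, and 1 further gene of the rule is not reported here. GC content and length came from GENCODE 29, which held 94.7% of the 112516 listed transcripts, and the deposited genes were given no coordinates because the builds differ. Coordinates of promoter windows are those of the RefSeq table (GRCh38.p14). The reference table of promoters lacked 10 of the members. The fit was tested on simulated data, and 3 libraries a group cannot be relied on to call differences as small as those of the members.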

Additional observations from a re-analysis of the deposited data

How the results depend on the processing

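The tests were repeated under 14 alternatives: another pseudocount (0.1), no filter, a filter of at least 1 FPKM in at least 3 libraries, quantile normalization, median centring, neither a variance trend nor robust variance, a replicate block, removal of each library's GC trend (chosen after seeing the data) and the omission of each library in turn. Members and other pathway genes called were 0 in every alternative. With 3 libraries a group and no read counts, the depth behind each value is unknown. Differences whose 95% interval held 0 could not be told from 0. Among the members, the intervals of DHX58 and IFIT2 left out 0, but only without adjustment for the number of genes.

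The genes called among all tested were 34 in the analysis as reported, 39 with a pseudocount of 0.1, 1 without a filter, 54 with the stricter filter, 19 with quantile normalization, 6 with median centring, 7 without both the variance trend and robust variance, 48 with the GC trend removed and 6 to 102 when 1 library was left out, the 102 without shNC replicate 3. Members with an unadjusted p under 0.05 were 2 as reported (13.7% of all genes tested), 1 without a filter (7.69%), 4 under quantile normalization (15.1%), median centring (13.4%) or GC removal (18.7%), and 1 to 9 when 1 library was left out. The 1, without shARHGEF2 replicate 1 (12.1%) or replicate 2 (9.59%), was DHX58. There were 3 without shNC replicate 1 (9.62%), 2 without shNC replicate 2 (11.3%) and 4 without shARHGEF2 replicate 3 (10.0%). The 9, without shNC replicate 3, were IRF9, IFIT3, IFIT1, GBP2, IFIT2, SAMD9, DHX58, ISG20 and IFNAR1, beside 16.0% of all genes tested. The cause of these moves was not tested.

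Whether the replicate numbers mark pairs of libraries is not given in the sources used here. The residual correlations of same-numbered libraries were 0.184, 0.159 and -0.105, which cannot settle it. With the replicate number as a block 0 genes were called, 3 members (DHX58, ISG20 and GBP2) had an unadjusted p under 0.05, beside 16.1% of all genes tested, and ARHGEF2 kept its log2 fold change of -1.47 with an adjusted p of 0.0716. Without a filter the adjusted p of ARHGEF2 was 0.0701 at the same log2 fold change of -1.47.

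DHX58 stayed between 0.30 and 0.47 (limma adjusted p 0.127 to 0.491), IFIT2 between -0.62 and -0.29 (0.193 to 0.657) and IFIT3 between -0.56 and -0.21 (0.206 to 0.675). IFIT1, IFIT5, ISG20, GBP2, IFI6, BST2 and OASL also kept their sign in all 14 alternatives. A total of 15 members changed sign in at least 1 alternative and 24 in none. ISG15 turned to 0.15 under quantile normalization (limma adjusted p = 0.308) and HERC5 to 0.028 with the GC trend removed. When 1 library was left out, ADAR ranged from -0.23 to 0.14, DDX60 from -0.065 to 0.24, DTX3L from -0.16 to 0.031, EIF2AK2 from -0.13 to 0.080, HERC5 from -0.10 to 0.18, IFI27 from -0.068 to 0.059, IFI35 from -0.20 to 0.13, IFI44 from -0.026 to 0.25, IFI44L from -0.034 to 0.085, IFNAR2 from -0.20 to 0.060, ISG15 from -0.077 to 0.077, OAS2 from -0.25 to 0.0030, PARP14 from -0.15 to 0.029, STAT2 from -0.024 to 0.17, TRIM25 from -0.15 to 0.0021 and USP18 from -0.091 to 0.20.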
